A study of Homo sapiens with 6 samples.

Results

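The genes described here make, release or receive the Hedgehog signal. They are the ligands SHH and DHH, the ligand release protein DISP1, the receptors PTCH1 and HHIP, the signal transducer SMO, and the co-receptors GAS1, CDON and BOC. They were chosen by gene symbol, and each of the 9 had a row of its own among the 57341 named genes of the count table. RNA was sequenced from H295R, an established human adrenocortical carcinoma cell line, in 3 replicates of the parental cells (H295R) and 3 replicates of a population sorted from that line by flow cytometry with an antibody against Ptch1 and then amplified (H295R-PM-Ptc+). Both populations were cultured in the same medium and received no treatment. The comparison asks how these genes differ between the parental cells and the population that carries more Ptch1 protein at its plasma membrane. The sort selected on that protein alone, and whether the population is a clone is not given in the sources used here. Nothing in the labels says that the replicates were separate cultures, so the p-values measure only the spread between these libraries, which may be technical.

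Hedgehog ligands are released from the cells that make them and bind PTCH1 on the receiving cells, which relieves the inhibition of SMO by PTCH1 and lets the GLI transcription factors activate their target genes. CDON, BOC and GAS1 help the ligand to bind PTCH1, while HHIP captures ligand without passing the signal on. PTCH1, HHIP and GLI1 are themselves targets of the pathway, so that their transcripts are commonly read as a measure of its activity, and in the adrenal gland SHH is made by progenitor cells beneath the capsule and received by capsule cells.

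The labels need a remark before any result. PTCH1 was lower in H295R-PM-Ptc+-labelled libraries than in H295R-labelled ones, against the name of the sorted population. The group names of the count table are also exchanged relative to those in the study's own table of normalized values, and nothing in the counts settles which naming is correct. The study's protein measurements were not used here. The libraries are therefore called H295R-labelled and H295R-PM-Ptc+-labelled throughout, and a log2 fold change above 0 means a higher level under the second label. The 6 libraries held between 23264403 and 25813247 counted fragments, and 16710 genes were expressed highly enough to be tested. All 8 adrenocortical markers were expressed, with summed levels of 881 to 1162 CPM (counts scaled to library size) in H295R-labelled libraries and 961 to 1220 in the others. Of these, CYP21A2 passed the test (log2 fold change 0.88, adjusted p 0.00670 by edgeR), a gene with a near-identical pseudogene. STAR (log2 fold change 0.41, adjusted p 0.346) and CYP11A1 (-0.25, adjusted p 0.391) passed with the replicate block, at adjusted p-values of 3.91e-06 and 0.00100. The markers of endothelial, immune and chromaffin cells were low. The summed levels were 0.197 to 0.335 against 0.509 to 0.648 CPM for 5 endothelial genes, 0.647 to 1.14 against 1.10 to 1.37 for 5 immune genes, mostly from CD14 with PTPRC and CD68 at 0, and 0.787 to 0.809 against 1.04 to 1.53 for 5 chromaffin genes, mostly from CHGA with PNMT and DBH at 0. CD14 (0.862 and 1.13 CPM on average, adjusted p 0.536 by edgeR) and CHGA (0.783 and 1.16 CPM, adjusted p 0.305) were high enough to be tested, and their part in the results was not tested. The capsule and fibroblast list (93.4 to 109 CPM) came mostly from NR2F2, followed by COL1A1 with means of 8.36 and 9.65 CPM, while LUM and TCF21 were at 0.

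Among the 9 genes, PTCH1, GAS1 and SHH were those with lower values in every H295R-PM-Ptc+-labelled library than in any H295R-labelled one. Their promoters are shown because they lay in the same direction and PTCH1 is a known target of the GLI factors. Each sequence holds the 250 bases before a transcription start, read on the gene's own strand from 5′ to 3′ and taken from RefSeq on GRCh38.p14. Capitals mark matches, on either strand, to the GLI site GACCACCCA, to CCAAT or to the GC box GGGCGG. The window of PTCH1, 1 of 5 for that gene, lies at chr9:95509267-95509516, that of GAS1 at chr9:86947507-86947756 and that of SHH at chr7:155812464-155812713, all on the minus strand. The PTCH1 window was picked because it held the GLI site, while GAS1 and SHH had 1 window each. It lies inside the annotated span of PTCH1, 95442980 to 95517057, and so belongs to an internal start.
PTCH1: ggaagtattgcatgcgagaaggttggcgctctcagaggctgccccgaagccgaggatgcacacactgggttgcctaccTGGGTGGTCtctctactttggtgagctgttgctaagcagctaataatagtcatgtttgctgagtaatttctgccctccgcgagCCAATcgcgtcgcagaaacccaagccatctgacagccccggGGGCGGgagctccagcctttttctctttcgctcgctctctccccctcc
GAS1: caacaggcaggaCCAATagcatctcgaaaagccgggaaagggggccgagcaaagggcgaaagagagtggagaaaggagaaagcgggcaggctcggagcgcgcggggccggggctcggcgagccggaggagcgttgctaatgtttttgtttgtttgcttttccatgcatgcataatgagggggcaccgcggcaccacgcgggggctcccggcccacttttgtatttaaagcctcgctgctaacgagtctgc
SHH: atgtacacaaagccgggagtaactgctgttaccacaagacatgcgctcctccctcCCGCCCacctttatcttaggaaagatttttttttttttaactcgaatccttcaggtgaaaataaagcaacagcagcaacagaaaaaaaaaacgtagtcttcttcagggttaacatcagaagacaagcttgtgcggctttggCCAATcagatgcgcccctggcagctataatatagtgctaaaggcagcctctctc

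The GLI site was found 172 to 164 bases before this internal start of PTCH1, on the opposite strand, and in no other of the 19 windows of the 9 genes. Of all 35116 windows of this length, 0.199% held it. CCAAT was found in 5 of the 19 windows, including all 3 shown, and in 32% of all windows. The GC box was found in 12 of the 19 windows, none of them that of GAS1, and in 42.6% of all windows. The letters TATAAA, searched in the same way, were found in none of the 19 windows and in 10.7% of all windows. A match describes the letters only, and no binding was measured.

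Across the 9 genes, BOC was higher and PTCH1 and GAS1 were lower in H295R-PM-Ptc+-labelled libraries at an adjusted p under 0.05 (edgeR's quasi-likelihood F-test, Benjamini-Hochberg adjustment over all tested genes). These are 3 of the 8 genes tested, while 3.73% of all tested genes passed, 2.42% higher and 1.32% lower. DHH was too low to be tested. DESeq2 called 5 of the 8, 2 higher and 3 lower, beside 5.45% of all tested genes (3.37% higher and 2.08% lower). The groups were fully apart in 5 of the 8, beside 23.5% of all tested genes. Same-numbered replicates share a code in the labels and deviated together, and with the replicate number as a block 7 of the 8 passed, 3 higher and 4 lower, beside 22.5% of all tested genes (12.1% higher and 10.4% lower). In bulk RNA, fewer cells that express a gene and less RNA per cell cannot be told apart.

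**Figure D1:**
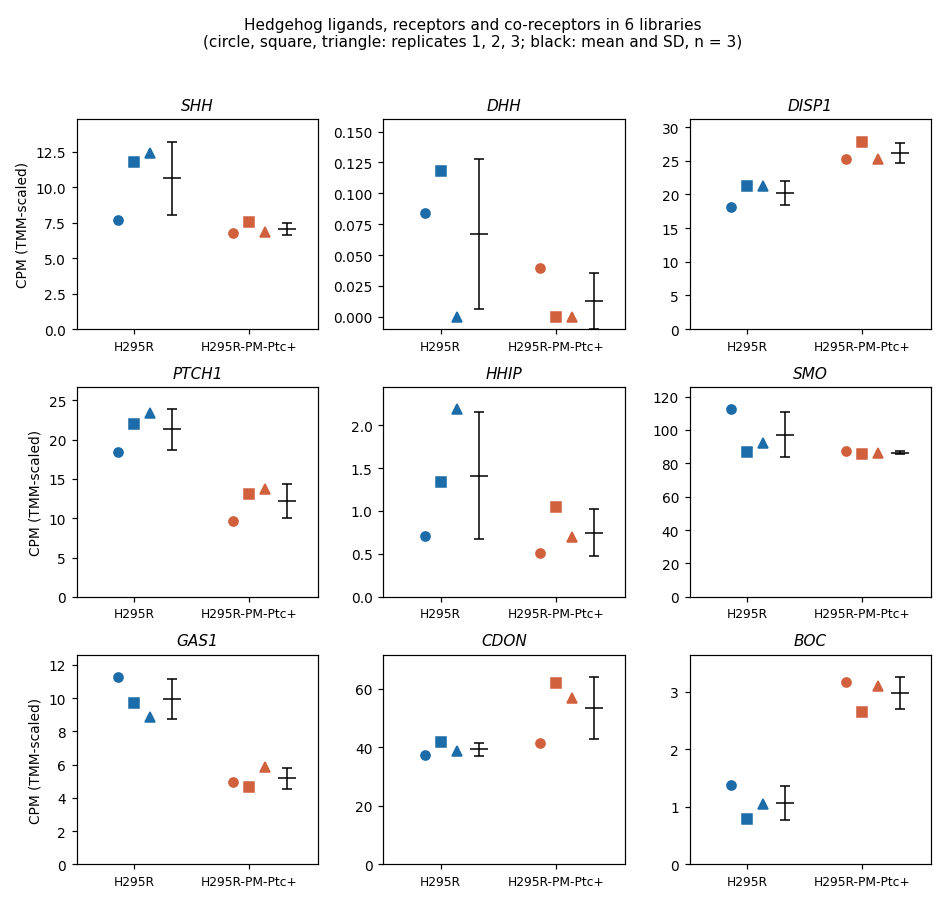
CPM of the 9 genes in each library labelled H295R (blue) and H295R-PM-Ptc+ (orange), with a linear axis for each gene; circles, squares and triangles are replicates 1, 2 and 3, and black marks give the mean and SD of 3 libraries. The groups are apart for SHH, DISP1, PTCH1, GAS1 and BOC and overlap for HHIP, SMO, CDON and DHH.

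SHH, the ligand known from the adrenal gland, lies on chromosome 7 from 155799986 to 155812273 (GRCh38, minus strand). H295R-labelled libraries held 7.66, 11.8 and 12.4 CPM in replicates 1, 2 and 3, and H295R-PM-Ptc+-labelled ones 6.77, 7.56 and 6.87 CPM. The groups did not overlap, but replicate 1 labelled H295R lay nearer to the other group than to its own replicates. The log2 fold change was -0.59 (standard error, SE, 0.18, 95% interval -0.99 to -0.18) with an adjusted p of 0.120 by the edgeR test. Without the library labelled H295R replicate 1 it was -0.78 with an adjusted p of 0.00489, and with the replicate block -0.57 with an adjusted p of 0.00244, in a range of 0.00195 to 0.330 over 13 alternatives.

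DHH, the ligand best known from Sertoli and Schwann cells, lies on chromosome 12 from 49089421 to 49094819. Its counts were 2, 3 and 0 in H295R-labelled libraries and 1, 0 and 0 in H295R-PM-Ptc+-labelled ones. Every library was at or under the floor of 3 counts, so that no fold is given. IHH, the remaining Hedgehog ligand, had 0 or 1 count in each library. SHH was therefore the ligand transcript measured in these cells, with counts from 159 to 307.

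DISP1 releases lipid-modified ligand from the cells that make it and lies on chromosome 1 from 222872271 to 223005995. It measured 18.1, 21.2 and 21.3 CPM in H295R-labelled libraries and 25.2, 27.8 and 25.3 CPM in H295R-PM-Ptc+-labelled ones. All 3 libraries of the second group were above all 3 of the first, and the spread within a group was small, at 20.2 ± 1.81 against 26.1 ± 1.48 CPM (SD, n = 3 each). The log2 fold change of 0.37 (SE 0.09, 95% interval 0.16 to 0.58) had an adjusted p of 0.0706 by the edgeR test. It passed with DESeq2 (adjusted p 0.0440) and with the replicate block (log2 fold change 0.37, adjusted p 9.97e-04), in a range up to 0.254 over 13 alternatives. The values of DISP1 and SHH thus lay in opposite directions.

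PTCH1, the receptor whose protein defined the sort, lies on chromosome 9 from 95442980 to 95517057. It was at 18.5, 22.0 and 23.4 CPM in H295R-labelled libraries and at 9.70, 13.1 and 13.8 CPM in H295R-PM-Ptc+-labelled ones. The groups did not overlap, and replicate 1 was the lowest of its group in both. PTCH1 was 1.75-fold lower in H295R-PM-Ptc+-labelled libraries, a log2 fold change of -0.81 (SE 0.15, 95% interval -1.14 to -0.47, adjusted p 0.0207 by the edgeR test). The call was lost when H295R replicate 2 (adjusted p 0.0799), H295R replicate 3 (0.0921) or H295R-PM-Ptc+ replicate 2 (0.0618) was left out, with log2 fold changes of -0.78, -0.74 and -0.86, and the highest adjusted p over 13 alternatives was the 0.0921 given.

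HHIP, the decoy receptor and a pathway target, lies on chromosome 4 from 144646021 to 144745271. It held 17, 34 and 54 counts in H295R-labelled libraries, which is 0.712, 1.34 and 2.18 CPM. In H295R-PM-Ptc+-labelled libraries it held 13, 26 and 16 counts, or 0.509, 1.05 and 0.691 CPM. The groups overlapped, and H295R replicate 3 stood well above the other libraries. Its log2 fold change of -0.92 was of the size seen for PTCH1 but carried an SE of 0.42 and an interval from -1.87 to 0.04 (adjusted p 0.313 by the edgeR test). With the replicate block the log2 fold change was -0.88 and the adjusted p 0.0375, the lowest of a range up to 0.674 over 13 alternatives. Without H295R replicate 3 the log2 fold change was -0.47. The counts were few and the spread between libraries was wide, which limits what can be said about HHIP. The source of this spread was not tested.

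SMO, the transducer that PTCH1 inhibits, lies on chromosome 7 from 129188872 to 129213545. H295R-labelled libraries held 112, 86.9 and 92.1 CPM and H295R-PM-Ptc+-labelled ones 87.3, 85.8 and 86.2 CPM. The groups overlapped, and replicate 1 labelled H295R was the high library. The log2 fold change was -0.17 (SE 0.10) with an adjusted p of 0.449 by the edgeR test, and the interval from -0.40 to 0.06 leaves room for a modest decrease and little increase. Without H295R replicate 1 the log2 fold change was -0.05, and without both libraries numbered 1 it was -0.06. SMO was the only tested gene of the 8 that did not pass with the replicate block (adjusted p 0.0602, log2 fold change -0.16), and 0.0602 was the lowest value over its 13 alternatives.

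GAS1, a membrane-anchored co-receptor, is annotated as a single exon on chromosome 9 from 86944363 to 86947189. Its level was 11.3, 9.72 and 8.86 CPM in H295R-labelled libraries and 4.97, 4.67 and 5.88 CPM in H295R-PM-Ptc+-labelled ones. The groups were well apart, the gap between them being wider than the range of either. GAS1 was 1.92-fold lower in H295R-PM-Ptc+-labelled libraries, and its log2 fold change was -0.94 (SE 0.14, 95% interval -1.27 to -0.62, adjusted p 0.00845 by the edgeR test). The call held under all 13 alternatives tried, with a largest adjusted p of 0.0466.

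CDON, an immunoglobulin-superfamily co-receptor, lies on chromosome 11 from 125955796 to 126063335. It measured 37.4, 41.9 and 38.6 CPM in H295R-labelled libraries and 41.6, 61.8 and 56.9 CPM in H295R-PM-Ptc+-labelled ones. Replicates 2 and 3 of the second group were above every other library, while its replicate 1 lay within the range of the first group. The log2 fold change of 0.44 (SE 0.14, 95% interval 0.13 to 0.75) had an adjusted p of 0.124 by the edgeR test. Without H295R-PM-Ptc+ replicate 1 it was 0.59 with an adjusted p of 0.0132, and with the replicate block 0.43 with an adjusted p of 4.12e-04, in a range up to 0.377 over 13 alternatives.

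BOC, the close relative of CDON, lies on chromosome 3 from 113211003 to 113287459. It held 33, 20 and 26 counts in H295R-labelled libraries and 81, 66 and 72 counts in H295R-PM-Ptc+-labelled ones. On the CPM scale these were 1.38, 0.787 and 1.05 against 3.17, 2.66 and 3.11, so that the lowest library of the second group was well above the highest of the first. BOC was 2.78-fold higher in H295R-PM-Ptc+-labelled libraries, a log2 fold change of 1.47 (SE 0.22, 95% interval 0.97 to 1.97, adjusted p 0.00843 by the edgeR test). Without H295R replicate 3 the adjusted p was 0.0525 at a log2 fold change of 1.45, the highest of 13 alternatives. The 3 co-receptors therefore did not move together, since GAS1 passed lower, BOC passed higher and CDON had a positive value that passed with the block alone of these 2 fits.

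**Figure D2:**
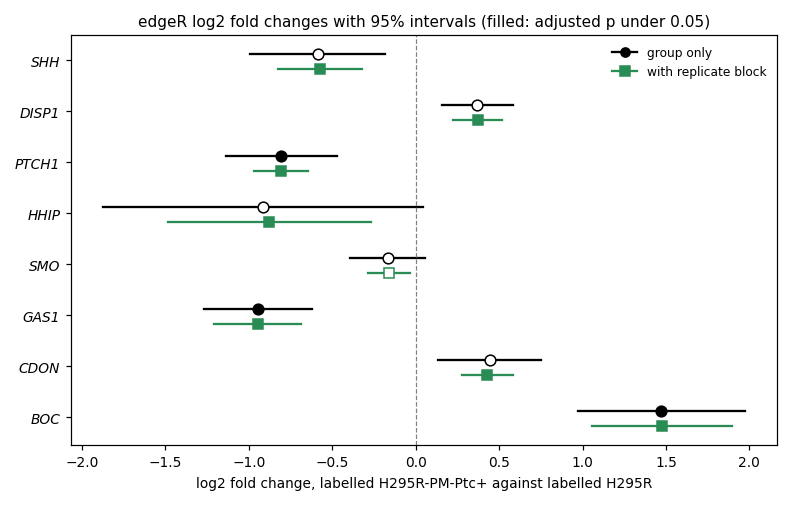
Log2 fold changes of the 8 tested genes (x axis, H295R-PM-Ptc+-labelled against H295R-labelled libraries) with 95% intervals, from the fit with group only (black circles) and with the replicate block (green squares); filled symbols have an adjusted p under 0.05. PTCH1, GAS1 and BOC are filled in both, SMO in neither, and the intervals of the block are narrower for each gene.

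Levels were compared between genes per length, as RPKM, which divides CPM by the gene's annotated exon length in kilobases. In H295R-labelled libraries, SMO was the highest of the 9 genes at 22.5 ± 3.11 RPKM (SD, n = 3), well above the next gene. DISP1 (3.76 ± 0.336), CDON (3.71 ± 0.217) and GAS1 (3.52 ± 0.430 RPKM) followed, and neighbors in this order overlapped in range. SHH (2.11 ± 0.512) and PTCH1 (1.28 ± 0.154 RPKM) came next, each apart from its neighbors. HHIP (0.117 ± 0.0612) and BOC (0.104 ± 0.0288 RPKM) were the low receptors and overlapped, 11.0 times below PTCH1 in the case of HHIP. SHH transcript was higher per length than that of its receptor PTCH1 in both groups, with no overlap in range. This order rests on the annotated exon lengths, 5038 bases for SHH and 16591 for PTCH1. In CPM, PTCH1 was the higher, at 21.3 against 10.6 on average in H295R-labelled libraries and 12.2 against 7.07 in the others.

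In H295R-PM-Ptc+-labelled libraries, SMO was again first at 20.1 ± 0.181 RPKM. CDON (5.04 ± 0.993) and DISP1 (4.86 ± 0.275 RPKM) overlapped, and GAS1 no longer overlapped with them at 1.83 ± 0.223 RPKM. SHH (1.403 ± 0.0858), PTCH1 (0.735 ± 0.132), BOC (0.288 ± 0.0273) and HHIP (0.0620 ± 0.0226 RPKM) followed, each apart from the next. The order of the groups thus differed in places: CDON stood before DISP1 and BOC before HHIP, and in each of these the pair overlapped in at least 1 group. Among all tested genes, again by RPKM on these lengths, SMO stood above 85.9% in H295R-labelled libraries and 84.4% in the others. PTCH1 stood above 27.9% and 19.0%, and BOC above 2.68% and 8.23%.

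**Figure D3:**
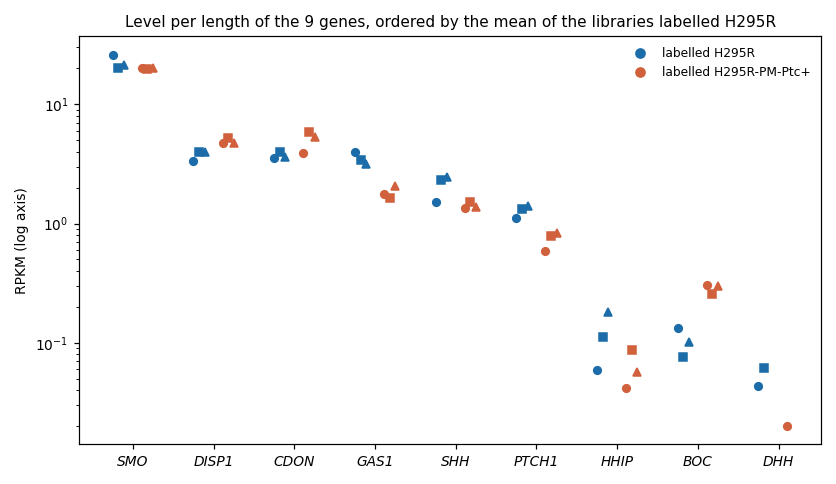
RPKM (log axis) of the 9 genes in each library, ordered by the mean of H295R-labelled libraries; blue points are labelled H295R, orange points H295R-PM-Ptc+, the shapes give replicates 1 to 3 as circle, square and triangle, and libraries with 0 counts of DHH are not drawn. SMO lies between 19.9 and 26.1 RPKM, while BOC and HHIP reach at most 0.307 RPKM.

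Ratios between these genes within a library do not depend on how libraries are scaled to each other. They were taken on RPKM, so their size rests on the annotated exon lengths, while their differences between the groups do not. These differences restate the single-gene values given above and are no separate evidence. Of 5 ratios compared, the balance of BOC to GAS1 differed most, with a mean log2 ratio of -5.11 ± 0.33 in H295R-labelled libraries and -2.66 ± 0.14 in H295R-PM-Ptc+-labelled ones (SD, n = 3 each). In linear terms BOC was 0.0289 of GAS1 in the first group and 0.158 in the second. The ratio of GAS1 to CDON per length was near 1 in H295R-labelled libraries (0.946) and 0.366 in the others, with lengths of 2827 and 10600 bases. That of PTCH1 to SMO had a mean log2 value of -4.13 and -4.79, and that of BOC to CDON one of -5.19 and -4.11. These 4 ratios differed in the same direction in all 3 same-numbered pairs, each with an exact permutation p of 0.1 (two-sided, n = 3 against 3), which is the smallest this design allows, and 0.125 after adjustment over the 5 ratios. The ratio of ligand to receptor, SHH to PTCH1, had a mean log2 value of 0.69 ± 0.21 and 0.95 ± 0.24 (exact permutation p = 0.3, n = 3 against 3), and its difference of 0.26 was about as large as the spread within a group.

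The replicates had a share in several of these values. Within the same-numbered pairs, each of the 8 tested genes differed in 1 direction in all 3 pairs, as did 52.6% of all tested genes. PTCH1 had log2 differences of -0.93, -0.75 and -0.77 in pairs 1, 2 and 3, and BOC had 1.20, 1.75 and 1.56. For GAS1 they were -1.18, -1.06 and -0.59. The pairs were less even for SHH (-0.18, -0.64 and -0.85), CDON (0.15, 0.56 and 0.56), HHIP (-0.48, -0.36 and -1.66) and SMO (-0.36, -0.02 and -0.10). The replicate number itself had an adjusted p under 0.05 for PTCH1 (0.00848) and CDON (0.0128) in the edgeR fit with the block, as for 26% of all tested genes. Both genes were lowest in replicate 1 of each group.

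**Figure D4:**
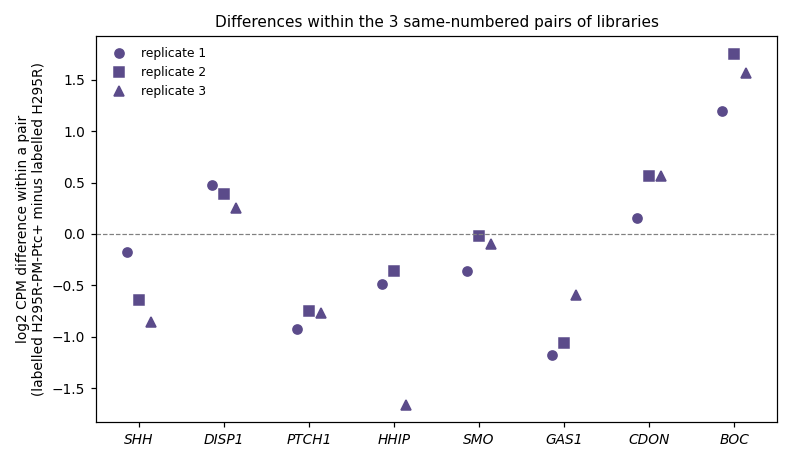
Differences in log2 CPM (y axis, library labelled H295R-PM-Ptc+ minus library labelled H295R) within the 3 same-numbered pairs for the 8 tested genes; circles, squares and triangles are pairs 1, 2 and 3. All points of a gene lie on the same side of 0, from -1.66 (HHIP, pair 3) to 1.75 (BOC, pair 2).

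The rest of the pathway was read from 55 further genes in 6 lists by role, of which 43 were expressed highly enough to be tested. DISP2 was higher and GPC4 was lower at an adjusted p under 0.05, so 2 of 43 passed, beside 3.73% of all tested genes. The median log2 fold change of the 43 was -0.02 and that of all tested genes 0.000939. With DESeq2 4 of the 43 passed, 2 in each direction, beside 5.45% of all tested genes. With the replicate block 8 passed, 4 in each direction, beside 22.5% of all tested genes. GPC1 and DISP3 (both higher) are named among these after their values were seen, beside DISP2, GPC4 and genes given with their lists. With any of the 6 libraries left out, DISP2 lost its call, since 0 pathway genes then passed higher, while 1 passed lower, or 2 without H295R replicate 1.

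Among 4 tested genes of ligand lipidation and release, 3 had higher and 1 a lower value, with a median log2 fold change of 0.45. DISP2, a homolog of DISP1 on chromosome 15 from 40358235 to 40371056, held 54 to 63 counts in H295R-labelled libraries and 88 to 98 in H295R-PM-Ptc+-labelled ones. The edgeR test gave it an adjusted p of 0.0413 at a log2 fold change of 0.72 (SE 0.16). HHAT, which attaches palmitate to the ligand, had 1.49 ± 0.165 and 1.32 ± 0.419 CPM (SD, n = 3 each) and an adjusted p of 0.805.

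Among 6 other ligand-binding surface proteins, 3 had higher and 3 lower values. GPC4, a glypican, lies on chromosome X from 133300103 to 133415490 and held 1371 to 1405 counts in H295R-labelled libraries and 714 to 807 in H295R-PM-Ptc+-labelled ones. It was lower with a log2 fold change of -0.84 (SE 0.07, adjusted p 5.76e-04 by the edgeR test), a value close to that of PTCH1 with a smaller error.

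Neither of the intracellular lists held a gene that passed by edgeR, and at an unadjusted p under 0.05 they held 1 and 0 genes, beside 17.3% of all tested genes. Of 13 genes that regulate SMO, 4 had higher and 9 lower values with a median log2 fold change of -0.03. Of 11 genes that control the GLI factors, 6 had higher and 5 lower values with a median of 0.05. For GLI2, an activator, the log2 fold change was -0.35 and the adjusted p 0.349 by the edgeR test, or 0.00265 with the replicate block. For GLI3, mainly a repressor, they were -0.11 and 0.577.

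Of 9 tested target genes other than PTCH1 and HHIP, 7 had lower and 2 higher values in H295R-PM-Ptc+-labelled libraries, with a median log2 fold change of -0.31, and none passed by the edgeR test, while 3 had an unadjusted p under 0.05, beside 17.3% of all tested genes. GLI1, the target most often used as a readout, had 3.01 ± 0.532 and 2.42 ± 0.0754 CPM (SD, n = 3 each), and its log2 fold change of -0.31 carried an adjusted p of 0.425. FOXF1 (log2 fold change -0.57, adjusted p 0.0850) and CCND2 (-0.42, adjusted p 0.0809) passed with the replicate block, at 0.0253 and 5.57e-06.

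**Figure D5:**
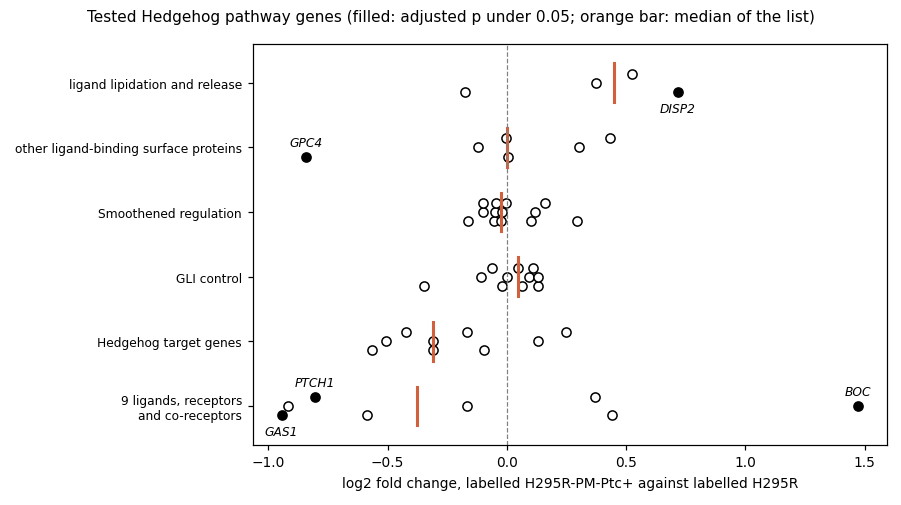
Log2 fold changes (x axis, H295R-PM-Ptc+-labelled against H295R-labelled libraries) of the tested pathway genes in 5 lists and of the 8 tested genes of the report (lowest row); each circle is a gene, filled circles have an adjusted p under 0.05, and orange bars are the medians of the lists. DISP2 and GPC4 are the filled genes outside the lowest row, and the SMO and GLI lists sit around 0.

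To place PTCH1, GAS1 and BOC among all genes, their log2 CPM over the 6 libraries, each centered on its own mean, was compared with that of 14554 genes with a mean of at least 1 CPM. The root mean square difference to the PTCH1 pattern was smallest for RNF152 (0.0746), KLHDC8A (0.0791) and AFF2 (0.0819). Among the other Hedgehog genes, SHH came at rank 107 and GAS1 at rank 205 of this order. The patterns most like GAS1 were those of NKX6-1 (0.103), ARSG (0.116) and FAM107B (0.119), and those most like BOC were B3GNT7 (0.0705), VCX2 (0.114) and ISLR (0.131). The 6 values of a gene hold the difference between the groups and the replicate effect together, so likeness here describes these libraries.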

How the data were processed

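Stranded paired-end RNA-seq libraries of 6 samples were mapped by the authors to hg38 with STAR 2.4.0a and counted on the genes' own strand with featureCounts. The labels name Subread 1.5.0-p3 and a total RNA kit, the methods another release and an mRNA kit. The authors deposited raw counts per gene name, without normalization, with multiply mapped reads kept at their primary position. A row with no gene name held 0 counts and was dropped. The main test was the two-sided quasi-likelihood F-test of edgeR 4.0.16 (R 4.3.3), run on group alone after filterByExpr and TMM normalization, with Benjamini-Hochberg adjustment over all 16710 tested genes. CPM used TMM-scaled library sizes, and RPKM divided CPM by the summed exon length of the deposited table. Standard errors and 95% intervals came from the same fit. The calls and fold changes, not the intervals, were tested on simulated counts. Replicates of a group differed by more than counting error, with a chi-square per gene of 6.03 to 28.5.

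Same-numbered replicates share the codes 1801, 3001 and 3101 in the labels, and their deviations from the group means correlated at 0.497, 0.307 and 0.228, against -0.352 to 0.15 for other pairs. The replicate number therefore formed a block in a second fit. Other alternatives were DESeq2 1.42.0, limma-voom (limma 3.58.1), RLE factors, every gene with a count, a minimum of 10 counts per gene in all libraries, each library left out in turn and, chosen after seeing the data, both libraries numbered 1 left out. The 9 genes and all lists were chosen with earlier results of these data known. Named were the 9 genes, list genes that passed or had the smallest p, IHH and the GLI genes, and the 3 genes most like PTCH1, GAS1 and BOC in pattern. ADRBK1, PTCHD2 and C16orf52 in the table are GRK2, DISP3 and MOSMO. Promoters were RefSeq's, matched by symbol for all 9 genes. Values were summarized with Python 3.11.15, pandas 2.3.3 and scipy 1.17.1, and drawn with matplotlib 3.10.9. Some genes of the lists are not reported here by name.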

Additional observations from a re-analysis of the deposited data

How the results depend on the processing

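Of the 8 log2 fold changes, each under 13 alternatives, 86 of 104 stayed on the same side of the threshold, 4 lost their call, 14 gained one and 0 changed sign. Of the 8 tested genes 3 passed in the main analysis, 5 with DESeq2, 6 when low counts were not filtered and 7 with the replicate block. Among the other pathway genes 2 passed in the main analysis, 4 with DESeq2, 4 with no filter and 8 with the replicate block. Over all genes 624 passed in the main analysis, 1111 with no filter and 3758 with the replicate block, which changed the calls of SHH, DISP1, HHIP and CDON and no other call of the 8 genes. The cause of these differences was not tested.

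With a library left out in turn, 1 to 4 of the 8 genes passed, the 1 being GAS1 without H295R replicate 3. The pathway genes then numbered 1 to 2, with 1 without each library but H295R replicate 1. All genes numbered 219 to 810, with 278 without H295R replicate 2, 219 without H295R replicate 3, and 247 and 257 without H295R-PM-Ptc+ replicates 2 and 3. Without both libraries numbered 1, which stand apart and were left out after seeing the data, 6 of the 8 genes, 7 pathway genes and 2013 of all genes passed, and the adjusted p was 0.00195 for SHH, 0.0279 for DISP1 and 6.60e-04 for CDON. HHIP ranged from -1.24 to -0.47 in log2 fold change with libraries left out. SHH passed with DESeq2 (0.0478) and with no filter (0.0184), and with no filter CDON (0.0171) and DISP1 (0.0481) passed too. The 5 ratios kept their sign with each library left out, SHH to PTCH1 ranging from 0.13 to 0.37 on the log2 scale. The order of levels was the same for all 9 genes with RLE library sizes and with TPM-like scaling. Both use the same gene lengths and scale all genes of a library alike, so they could hardly change this order. Other gene lengths were not tried. Depth limits BOC, HHIP and DHH, which held at most 81, 54 and 3 counts in a library.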

Other observations

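Each tested gene was set beside its 20 nearest tested genes on each side of the chromosome. Lower values in H295R-PM-Ptc+-labelled libraries were the majority around PTCH1 (29 of 40), GAS1 (31 of 40), DISP1 (30 of 40), HHIP (28 of 40), CDON (26 of 40) and BOC (25 of 40), and the minority around SMO (14 of 40) and SHH (13 of 34), beside 8328 of all 16710 tested genes. On chromosome 9, the neighbors of PTCH1 had a median log2 fold change of -0.15 and PTCH1 lay 0.65 below it, and those of GAS1 had a median of -0.13 and GAS1 lay 0.82 below it. Of these neighbors 1 of 40 and 3 of 40 passed the edgeR test, beside 3.73% of all tested genes. The medians around the other 6 genes lay between -0.07 and 0.06.

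Several of the 9 genes share exon bases with genes on the opposite strand, which counting by strand keeps apart. RP11-435O5.5, antisense to PTCH1 over 711 bases, held 71, 68 and 51 counts in H295R-labelled libraries and 51, 34 and 34 in H295R-PM-Ptc+-labelled ones. HHIP-AS1, antisense to HHIP over 178 bases, held 35, 32 and 41 against 42, 33 and 29 counts, and in 4 of the 6 libraries it had more counts than HHIP. WDR52 shares 530 bases with BOC and held 159, 264 and 196 against 174, 228 and 152 counts, more than BOC in every library. On the same strand as DISP1, RP11-455P21.3 shares 402 bases and held 0 to 4 counts.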
